A study of Homo sapiens with 20 samples.

Results

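The subject here is the mRNA of 10 tubulin genes in HUDEP-2 cells during erythroid differentiation. They comprise 4 alpha tubulins (TUBA1A, TUBA1B, TUBA1C and TUBA4A) and 6 beta tubulins (TUBB, TUBB1, TUBB2A, TUBB2B, TUBB4B and TUBB6). They were chosen by gene symbol, and all 10 were found among the 46425 gene symbols of the tables, where they are represented by 33 RefSeq transcripts. All 10 also passed the filter on low counts, which left 16784 genes to test.

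HUDEP-2 is a line of erythroid progenitors derived from umbilical cord blood and immortalized with viral genes under a doxycycline-inducible promoter, so the samples are cultures of 1 line. All were wild type, and poly(A) RNA was sequenced before differentiation (day 0), on each of days 1 to 8, and on day 12, with 2 samples per day and 20 in all. Cells were expanded in the serum-free medium StemSpan SFEM with erythropoietin, stem cell factor (SCF), doxycycline and, per the methods, dexamethasone. For differentiation they were moved to IMDM without dexamethasone, with transferrin, human serum, heparin and insulin beside erythropoietin, SCF and doxycycline. SCF was withdrawn on day 6 and doxycycline on day 8. Maturation and these changes of medium cannot be told apart in any comparison that spans them, and day 0 alone is in the expansion medium.

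Microtubules are polymers of heterodimers of 1 alpha and 1 beta tubulin. The isotypes are encoded by separate genes whose products are nearly identical in their core and differ mainly in the acidic tail at the carboxyl end, which lies on the outside of the microtubule and carries most of its modifications. TUBA1B and TUBB are the widely used isotypes of dividing cells, TUBB4B is another broadly expressed beta tubulin, TUBA1A, TUBB2A and TUBB2B are best known from neurons, and TUBB1 and TUBA4A from platelets, where microtubules form a ring under the membrane. Erythroblasts divide a few times on a microtubule spindle, stop, expel the nucleus and as reticulocytes lose their remaining microtubules.

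Cells also tune tubulin mRNA to the amount of free dimer. When free tubulin is in excess, ribosomes that have just translated the first codons of an alpha or beta tubulin are recognized by TTC5, and the mRNA is degraded. The first coding bases of the isotypes are shown for that reason, with codons 2 to 4 in capitals (coding sequence of hg38 with GENCODE 44 models, 5′ to 3′). Those of TUBA1A and TUBA1C were the same as TUBA1B's.
TUBA1B: atgCGTGAGTGC
TUBA4A: atgCGTGAATGC
TUBB: atgAGGGAAATC
TUBB4B: atgAGGGAAATC
TUBB2A: atgCGCGAGATC
TUBB1: atgCGTGAAATT
In the 4 alpha genes an intron follows the first codon, and in the 6 beta genes it does not. The recognized stretch was present in every isotype, and the part of this regulation in the levels below was not tested.

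The last 48 coding bases hold the tail and are the part that distinguishes the isotypes. For the alpha tubulins the last codon before the stop is in capitals. It is the codon for the terminal tyrosine that is removed and put back in the best-known modification of microtubules. TUBA4A is the member without it: its last codon is GAA.
TUBA1C: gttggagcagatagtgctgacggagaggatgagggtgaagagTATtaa
TUBA4A: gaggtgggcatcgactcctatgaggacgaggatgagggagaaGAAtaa
These stretches of TUBA1C and TUBA4A lie at chr12:49273180-49273227 (hg38, plus strand) and chr2:219250352-219250399 (minus strand).

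For the beta tubulins the capitals mark GAA and GAG, the codons for glutamate, to which glutamylating enzymes attach side chains.
TUBB: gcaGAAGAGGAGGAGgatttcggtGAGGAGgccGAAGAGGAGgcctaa
TUBB4B: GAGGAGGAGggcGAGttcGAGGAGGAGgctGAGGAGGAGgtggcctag
TUBB2A: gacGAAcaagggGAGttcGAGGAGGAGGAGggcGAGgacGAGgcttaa
TUBB2B: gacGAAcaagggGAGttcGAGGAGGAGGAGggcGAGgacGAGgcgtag
TUBB1: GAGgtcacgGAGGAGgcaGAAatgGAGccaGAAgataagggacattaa
Of the 15 codons before the stop, 10 were GAA or GAG in TUBB4B, 9 in TUBB, 8 in TUBB2A and in TUBB2B, 7 in TUBB6 and 6 in TUBB1. TUBB2A (chr6:3153863-3153910, minus strand) and TUBB2B (chr6:3224751-3224798, minus strand) differ within this stretch only in the last codon and the stop codon. Over the whole coding sequence TUBB2A and TUBB2B were 98.1% identical, TUBA1A and TUBA1B 97.2%, and TUBA1B and TUBA1C 96.8%, whereas TUBA4A matched the other alpha tubulins at 84.4% to 85.7% and TUBB1 the other betas at 74.0% to 76.1%. How reads shared by such copies were divided is not given in the sources used here, so the split within TUBB2A and TUBB2B and within the TUBA1 genes is less certain than their sums.

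Which alpha and beta isotypes make up the tubulin mRNA was asked first, with each gene's TPM (a share of all transcripts that is divided by transcript length and so can be compared between genes) as a percentage of the summed TPM of the 4 alpha or 6 beta members in the same library. These 10 genes held nearly all of the families' mRNA, 99.7% to 99.9% of all alpha tubulin TPM and 97.1% to 99.7% of all beta tubulin TPM, pseudogenes included. The tables give the day of each library but no replicate number, so libraries are named by table: the first set comes from tables of separate spans of days and the second from 1 table of all 10 days. With 2 libraries a day an exact permutation test cannot go below p = 0.333, so shares are described without a test.

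From day 0 to day 8 the alpha pool kept 1 order. TUBA1B held 76.8% and 80.9% on day 0 (first and second set), and its share was between 72.0% and 81.0% in all 18 libraries up to day 8. TUBA1C held 10.9% to 21.0%, TUBA1A 5.19% to 9.30% and TUBA4A 0.91% to 1.80% over the same libraries, so these ranges of TUBA1B, TUBA1C, TUBA1A and TUBA4A did not touch each other. Within that order TUBA1C stood at 16.6% and 12.1% on day 0 and 12.2% and 10.9% on day 8, so that the 2 days overlapped, and TUBA1A at 5.42% and 5.87% and then 9.30% and 6.87%.

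On day 12 the alpha pool was shared more evenly. TUBA1B held 36.5% and 32.0%, TUBA1C 29.5% and 28.9%, TUBA4A 21.4% and 29.0%, and TUBA1A 12.6% and 10.0%. TUBA4A, the isotype without the tyrosine codon, went from a mean of 1.51% ± 0.41 (SD, n = 2) on day 8 to 25.2% ± 5.36 on day 12. The libraries of the 2 days were far apart for TUBA1B, TUBA1C and TUBA4A, and the order of TUBA1C and TUBA4A within day 12 was not resolved, since the second set had them level. Counted in reads, which favour the longer TUBA1C transcript, TUBA1C led the alpha pool of day 12 with a mean of 39.6%.

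The beta pool changed its leading isotype. TUBB held 64.7% to 73.8% in the 18 libraries of days 0 to 8 and then 9.25% and 9.50% on day 12. TUBB4B was second on each day up to day 8, with 23.7% and 21.3% on day 0 and 16.6% and 14.0% on day 8, and it led on day 12 with 47.4% and 54.6%. TUBB2A, at most 4.85% before, came next with 29.9% and 25.3%.

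TUBB2B held 8.83% and 7.64% on day 12 against at most 1.69% in any earlier library. TUBB6, a beta tubulin that weakens microtubules when it is overproduced, held 4.96% to 8.35% up to day 8 and 2.94% and 2.1% on day 12. TUBB1 was the least abundant isotype in every library, at 0.035% to 0.31% up to day 8 and 1.70% and 0.88% on day 12. Together TUBB2A, TUBB2B and TUBB4B were 18.3% to 29.4% of beta tubulin mRNA in the earlier libraries and 86.1% and 87.5% on day 12.

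**Figure D1:**
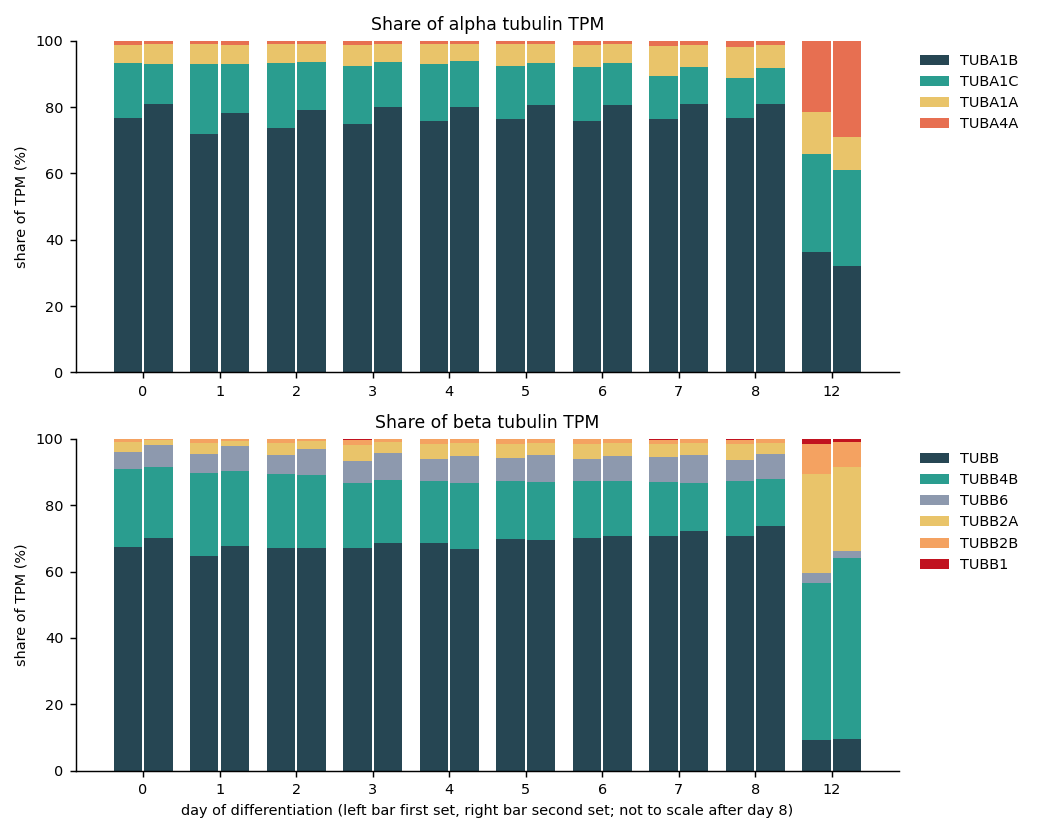
Stacked bars give the share (%) of each isotype in the summed TPM of the 4 alpha (top) and 6 beta (bottom) tubulin genes, by day, with the first-set library on the left and the second-set library on the right of each pair. TUBA1B and TUBB fill most of every bar up to day 8, and on day 12 both are smaller while TUBA4A (21.4% and 29.0%), TUBA1C (29.5% and 28.9%), TUBB4B and TUBB2A are larger.

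The 2 families together were 0.591% to 0.957% of all TPM up to day 8 and 0.0846% and 0.0707% on day 12. Alpha tubulin TPM was 2875 in the first set and 3831 in the second on day 8, and 183 and 160 on day 12. Beta tubulin TPM was 3037 and 3765 on day 8, and 663 and 548 on day 12. Both families were lower on day 12 in both sets, alpha by more than beta.

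Alpha and beta mRNA had been close to balance before. The ratio of alpha to beta TPM was 0.924 to 1.08 in the 18 libraries up to day 8 and 0.275 and 0.292 on day 12, well below all of them. Because a ratio within a library does not depend on the other transcripts there, it is not touched by the scaling issue described next, but it does rest on the transcript lengths used for TPM. Neither ratio nor shares tell which of the genes changed per cell, since in bulk RNA fewer cells of a type and less RNA per cell cannot be told apart.

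**Figure D2:**
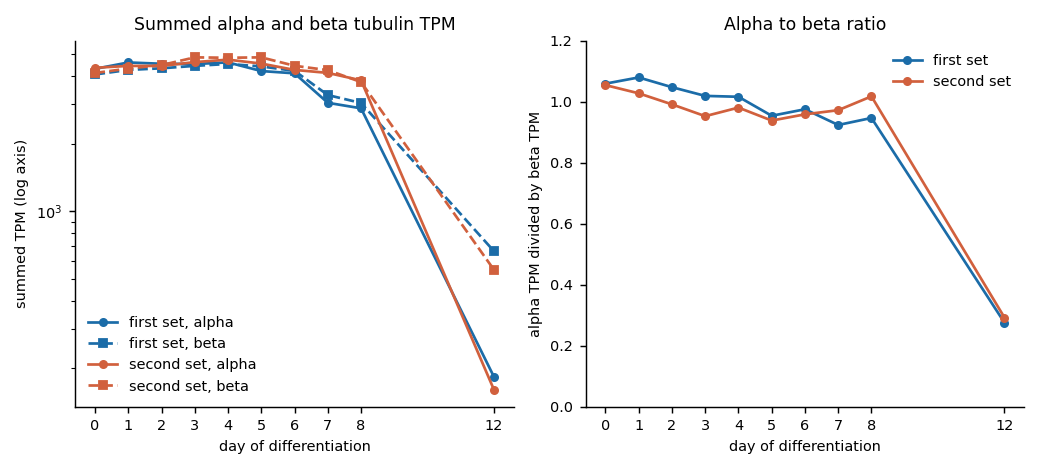
Left, summed TPM of the 4 alpha (circles, solid lines) and 6 beta (squares, dashed lines) genes by day on a log axis; right, alpha TPM divided by beta TPM, each point 1 library. The ratio stays between 0.924 and 1.08 up to day 8 and is 0.275 and 0.292 on day 12.

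Levels across days were tested on read counts with edgeR's quasi-likelihood test, fitted over all 20 libraries and 16784 genes with Benjamini-Hochberg adjustment over all of them, and are given as normalised CPM (counts scaled to a library size that edgeR's TMM method corrects). The 2 libraries of a day are labelled as replicates, and the study calls those of its comparison of days 0 and 8 biological replicates. Separate cultures are not described. The p-values rest on the spread between libraries of the same day, estimated over all days together, and part of that spread may be technical. Libraries held 52131713 to 70358198 counts, which puts 3 counts at 0.0426 to 0.0575 CPM. The lowest count of any member was 134 (TUBB1, first set, day 0), and no other member had a count under 1017. Ribosomal RNA took 1.03% to 4.08% of the counts in 18 libraries and 18.5% and 17.5% in the first-set libraries of days 7 and 8. Globin mRNA took 0.819% to 9.85% up to day 8 and 28.2% and 33.7% on day 12.

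The 2 scales part at day 12. TPM is a share of all mRNA and falls for any gene that globin outgrows, whereas TMM sets the bulk of genes level, and neither measures RNA per cell. From day 8 to day 12 the median log2 fold change of all tested genes was -0.20 on the TMM scale, -0.02 with upper-quartile factors, -0.03 with DESeq2's size factors and -0.68 on log2(TPM + 1). For each of the 10 members the TMM value was higher than the log2(TPM + 1) value by 1.36 to 1.47. Differences between members were therefore nearly the same on both scales, while the sign of a member near 0 was not.

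The comparison of day 12 with day 8 asks what remains of the tubulin mRNA at the end of the culture. Of the 10 members 4 were higher and 5 lower by the test, beside 23.8% and 33.4% of all genes tested. TUBA1B, TUBB, TUBB6, TUBA1A and TUBA1C were lower, and TUBB2A, TUBB2B, TUBA4A and TUBB4B were higher on the TMM scale. Normalised CPM of the 2 days did not overlap for any of the 10, as for 74.5% of all genes. On log2(TPM + 1) with limma, 0 members were higher and 6 lower, beside 8.38% and 53.6% of all genes, as TUBB4B joined the lower ones.

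TUBA1B had 2406 and 2800 normalised CPM on day 8 and 157 and 159 on day 12. Every library of day 12 was below those of day 8, and the fitted level was 16.5-fold lower (log2 fold change -4.04 ± 0.16 SE, adjusted p = 2.9e-10). TUBB, its usual beta partner in dividing cells, had 3609 and 3854 on day 8 and 222 and 249 on day 12. It was 15.9-fold lower (-3.99 ± 0.14, adjusted p = 1.5e-10), a change of nearly the same size as that of TUBA1B.

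TUBA1A went from 314 and 256 normalised CPM to 58.9 and 52.4, and TUBB6 from 242 and 303 to 52.9 and 41.3. Both were lower in each set, TUBA1A by a fitted 5.12-fold (adjusted p = 7.3e-08) and TUBB6 by 5.78-fold (adjusted p = 1.1e-06). TUBA1C had 664 and 652 normalised CPM on day 8 and 220 and 249 on day 12. It was 2.81-fold lower (adjusted p = 0.00035), the smallest fitted fall of the 5, and its share of alpha tubulin was higher although its level fell. These 5 genes were lower on the TPM scale as well, with log2 fold changes of -2.91 for TUBA1C to -5.46 for TUBA1B.

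TUBA4A had 67.7 and 53.1 normalised CPM on day 8 and 113 and 178 on day 12. The day 12 libraries were both higher, though the rise differed between the sets, with a log2 fold change of 0.74 in the first and 1.75 in the second, and the fit gave 2.41-fold (1.27 ± 0.20, adjusted p = 0.00010). In TPM the gene was at 51.8 and 46.7 on day 8 and 39.1 and 46.4 on day 12. There it did not pass the test and its sign was the opposite (log2 fold change of TPM + 1 -0.20, adjusted p = 0.29 with limma), so its level was held or raised according to the scale while that of the other 3 alpha tubulins was lower on both.

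TUBB2A had 153 and 112 normalised CPM on day 8 and 465 and 429 on day 12, and TUBB2B had 54.6 and 39.1, then 163 and 154. Both were 3.37-fold higher on the TMM scale (adjusted p = 0.0011 for TUBB2A and 0.0043 for TUBB2B) and above 0 but short of the threshold on log2(TPM + 1), with log2 fold changes of 0.32 for each (adjusted p = 0.44 and 0.53 with limma). Reads assigned to TUBB2A outnumbered those assigned to TUBB2B 2.33 to 2.87 times in all 20 libraries. How reads shared by the 2 genes were divided is not known, so this ratio may not be that of their mRNA.

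TUBB4B, the most abundant beta tubulin of day 12, had 529 and 458 normalised CPM on day 8 and 711 and 892 on day 12. It was 1.62-fold higher on the TMM scale (0.70 ± 0.15, adjusted p = 0.0010) and lower on log2(TPM + 1), at -0.75 (adjusted p = 6.2e-05 with limma), so its direction depends on the scale. Relative to the median gene it was at 0.90 on the TMM scale, -0.07 on log2(TPM + 1) and 0.45 on log2(TPM + 0.1), where the median of all genes moved by -1.20, so on the TPM scale that sign turns with the value added before the logarithm.

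**Figure D3:**
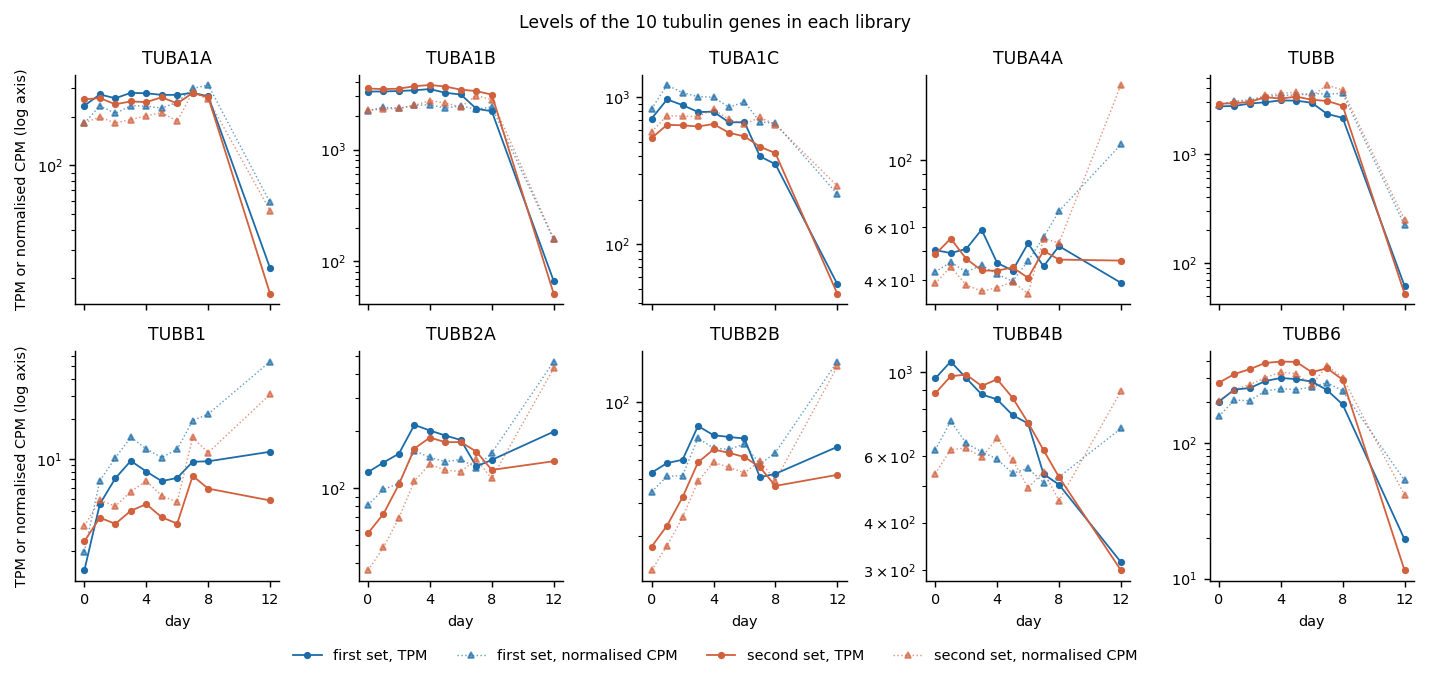
Each panel shows 1 gene in every library by day (log axis, each panel with its own range): circles and solid lines are TPM, triangles and dotted lines normalised CPM, blue the first set and orange the second. TUBA1B and TUBB fall on both scales after day 8, TUBA4A stays near 40 to 60 TPM while its normalised CPM rises to 113 and 178, and TUBB4B falls in TPM but rises in normalised CPM.

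The comparison of day 8 with day 0 is the one the study itself used for differential expression. Of the members 5 were higher (TUBB1, TUBB2A, TUBA1A, TUBA4A and TUBB) and 0 lower, beside 17.7% and 19.4% of all genes tested. DESeq2 called 2 alpha and 4 beta members higher and 0 lower, beside 3247 and 3809 of 16784 genes. Among the 5 that edgeR did not call, TUBB2B and TUBB6, both with higher values on day 8, had an unadjusted p under 0.05 with edgeR. At least the 17.7% of all genes that edgeR called higher met that threshold too. With the set (first or second) as a block in edgeR, TUBB2B and TUBB6 also passed (adjusted p = 0.0069 and 0.0078), giving 7 higher and 0 lower beside 22.6% and 25.7% of all genes. On log2(TPM + 1) with limma 1 member was higher (TUBB1) and 2 were lower (TUBA1C and TUBB4B), beside 7.29% and 39.7% of all genes.

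TUBB1 had 1.99 and 3.10 normalised CPM on day 0 and 21.8 and 11.1 on day 8. The days did not overlap and the fitted level was 6.46-fold higher (2.69 ± 0.63, adjusted p = 0.0050), with log2 fold changes of 3.46 in the first set and 1.84 in the second. It was the member with the largest fitted rise, yet on day 8 it was still the lowest of the 10 in TPM, at 9.57 and 5.95. Without the first-set library of day 0 the adjusted p was 0.056, at a log2 fold change of 2.40.

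TUBB2A had 81.2 and 36.6 normalised CPM on day 0 and 153 and 112 on day 8. The 2 libraries of day 0 lay far apart but below both of day 8, and the fitted level was 2.25-fold higher (1.17 ± 0.37, adjusted p = 0.023). By day 4 TUBB2A already stood at 145 and 134. Without the second-set library of day 0 the log2 fold change was 0.71 (adjusted p = 0.19), and without the first-set library of day 8 it was 0.93 (adjusted p = 0.15).

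The other 3 steps were smaller. TUBA1A went from 182 and 183 normalised CPM to 314 and 256 (1.56-fold, adjusted p = 0.0077), TUBA4A from 42.5 and 38.9 to 67.7 and 53.1 (1.48-fold, adjusted p = 0.038) and TUBB from 2835 and 2843 to 3609 and 3854 (1.31-fold, adjusted p = 0.023). In each of the 3 both libraries of day 8 were above both of day 0. TUBB lost its call when any 1 of the 4 libraries was left out (adjusted p = 0.054 to 0.11). TUBA4A lost it without either library of day 0 (adjusted p = 0.10 and 0.17) or without the first-set library of day 8 (0.28), and TUBA1A without the first-set library of day 0 (0.050) or of day 8 (0.089).

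On the TPM scale TUBA4A and TUBB were at or below 0 for the same step, with log2 fold changes of -0.01 and -0.21 on log2(TPM + 1). The median of all genes moved by -0.34 on that scale between these days, and ribosomal RNA, which counts in the TPM total, was 17.5% of the first-set and 2.34% of the second-set library of day 8. Its part in the difference between the scales was not tested. TUBA1B, at 2228 and 2248 normalised CPM on day 0 and 2406 and 2800 on day 8, and TUBA1C, at 833 and 582 and then 664 and 652, did not pass the test (adjusted p = 0.24 and 0.79).

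Splitting this interval, day 4 against day 0 and day 8 against day 4 each gave 0 called members in both directions with edgeR fitted without a block, beside 2.93% higher and 2.35% lower of all genes in the first step and 7.94% and 9.24% in the second. At an unadjusted p under 0.05, met by 18.4% of all genes in the first step and 33.1% in the second, there were 5 members in the first step (TUBB, TUBB1, TUBB2A, TUBB2B and TUBB6, all with higher values on day 4) and 3 in the second (TUBA1A and TUBA4A with higher and TUBB4B with lower values on day 8). DESeq2 called 4 higher and 0 lower in the first step, beside 5.43% and 5.73% of all genes, and 1 higher and 1 lower in the second, beside 11.6% and 14.3%. The calls also depended on the model within edgeR. With the set (first or second) as a block, TUBB1, TUBB2A, TUBB2B and TUBB6 were higher in the first step (adjusted p = 0.0070, 0.0043, 0.0095 and 0.012) beside 6.86% higher and 7.45% lower of all genes, and TUBA1A and TUBA4A in the second (0.013 and 0.027) beside 14.4% and 17.5%, with 0 members lower in either.

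**Figure D4:**
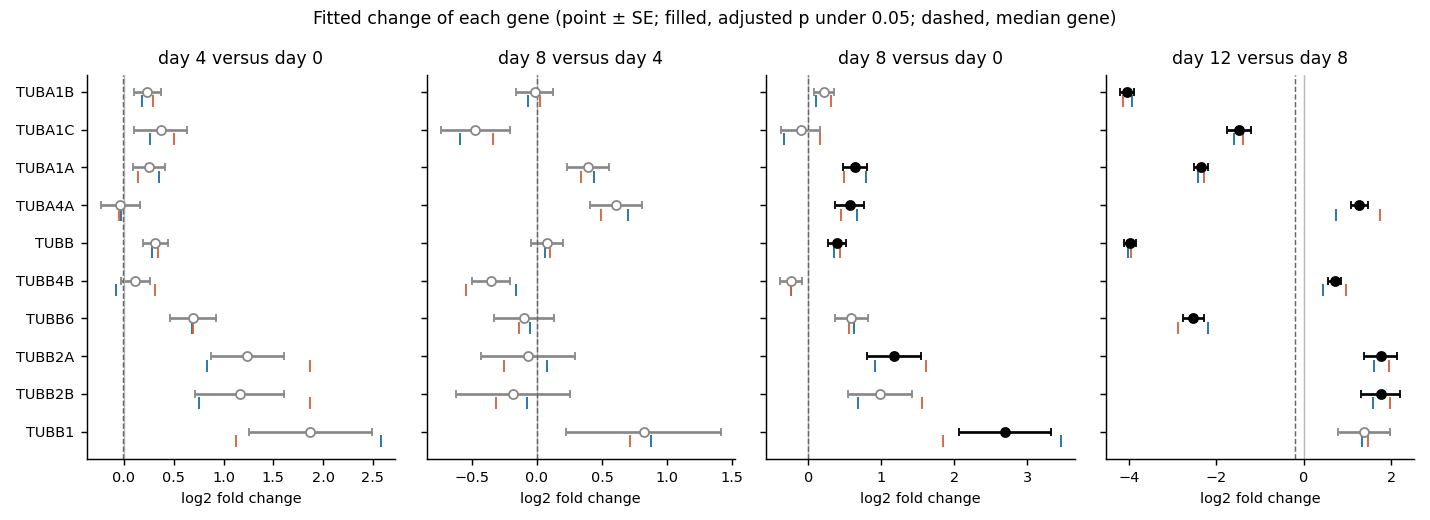
Points are fitted log2 fold changes on the TMM scale with their SE for the 10 genes in 4 comparisons, filled where the adjusted p was under 0.05; blue and orange ticks are the first and second set alone, the dashed line is the median of all genes. Between day 12 and day 8 the genes fall on either side of 0, from -4.04 (TUBA1B) to 1.76 (TUBB2B), while most points lie above 0 for day 4 and day 8 against day 0, and 4 of 10 for day 8 against day 4.

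TUBB1 is a gene of platelets and megakaryocytes, and markers of these and other blood cells were read in the same libraries. Of 8 megakaryocyte and platelet markers, GP1BA, PF4 and PPBP had 0 counts in all 20 libraries, and VWF, GP9 and GP6 had at most 14. The summed level of the 8 was 115 CPM in the first set and 17.4 in the second on day 0, and 0.928 and 0.786 on day 8. It was lower on day 8 than on day 0, while TUBB1 was higher, and on day 0 nearly all of it was ITGA2B, the alpha chain of the platelet fibrinogen receptor, which early progenitors also carry. ITGB3 and GP6 did not fall with it. ITGB3 had 0.22 and 0.34 normalised CPM on day 0 and 0.43 and 0.39 on day 8 (adjusted p = 0.68 with edgeR). GP6 had 0 counts in both libraries of day 0 and 2 and 6 on day 8. From day 8 to day 12, where TUBB1 values were again higher, the sum was higher too, at 2.84 and 1.45 CPM. ITGA2B went from 0.68 and 0.29 to 5.16 and 3.12 normalised CPM (log2 fold change 3.08, adjusted p = 0.13 with edgeR). Only 3 of the 8 markers could be tested. Of these edgeR called 0 higher and 1, ITGB3, lower (24 and 20 counts to 2 and 0), beside 23.8% and 33.4% of all genes. DESeq2 called 1 higher and 1 lower, beside 4514 and 5249 of 16784 genes. The part of such cells in the TUBB1 values was not tested. All 9 erythroid markers (globins, ALAS2, SLC4A1 and others) were higher on day 8 than on day 0 by the test, whereas the mast cell and basophil markers went from a summed 583 and 292 CPM to 2.02 and 0.403. Markers of macrophages and granulocytes summed to 1.90 to 27.9 CPM in all libraries, with MPO and ELANE at or under 3 counts on every day. Of the 3 that could be tested, 1 was higher and 0 lower on day 12 than on day 8, beside 23.8% and 33.4% of all genes. It was CD68, named after its values were seen, from 3.7 and 1.8 to 9.5 and 8.3 normalised CPM (log2 fold change 1.69, adjusted p = 0.0052 with edgeR).

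In the counts TUBB1 was higher still on day 12, going from 21.8 and 11.1 to 54.3 and 30.7 normalised CPM. The libraries did not overlap, but the difference did not pass the test (log2 fold change 1.37 ± 0.60, adjusted p = 0.066), and in TPM it was flat at 9.57 and 5.95 on day 8 and 11.3 and 4.84 on day 12. With upper-quartile factors, with DESeq2 and with the set as a block the day 12 increase did pass (adjusted p = 0.047, 0.017 and 0.0029). The first set was above the second in TPM from day 1 onwards and below it on day 0.

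Most isotypes were read from 1 transcript. TUBA1B, TUBB2B and TUBB4B have a single RefSeq transcript in the tables, and NM_032704 made at least 99.03% of TUBA1C in every library. NM_006009 made 69.8% to 95.1% of TUBA1A TPM, with its highest share on day 12 (87.5% and 95.1%). NM_006000 made a median of 90.6% of TUBA4A, under 75% in 2 libraries, and NM_030773 a median of 92.2% of TUBB1, under 75% in 1. The main transcript of TUBB6, NM_032525, went from 87.7% and 90.5% on day 0 to 79.5% and 80.5% on day 12. These are estimates for transcripts that overlap over most of their length.

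The genes whose log2 CPM followed TUBB most closely over the 20 libraries were TDRD10, FANCI, TUBA1B, SPAG5 and RNASEH2A, with Pearson r from 0.997 to 0.998. Over the 18 libraries without day 12 the same 5 had r of 0.809 to 0.922, so the fall at day 12 carries part of the likeness. FANCI acts in DNA crosslink repair, SPAG5 on the mitotic spindle and RNASEH2A in replication. For TUBB1 they were WASH5P, KIF26A, MOSPD1, SERINC2 and PHOSPHO1, with r from 0.942 to 0.962 (0.918 to 0.953 without day 12). The points share their libraries and sets, and these values describe likeness only.

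Of 12 other tubulin genes 8 could be tested and 6 had a mean of at least 10 counts. TUBA3C, TUBA3D and TUBA3E had 0 counts in all libraries, and TUBB8 at most 2. TUBB3, a beta tubulin of neurons, was at 3.32 ± 1.12 TPM on day 0, 0.97 ± 0.37 on day 8 and 1.07 ± 0.01 on day 12. In normalised CPM it was at 2.30 ± 0.87, 1.09 ± 0.47 and 3.08 ± 0.57 on these days. TUBA8 stayed under 1 TPM on average on days 0, 4, 8 and 12, with 0.57 ± 0.15 normalised CPM on day 8 and 1.24 ± 0.30 on day 12. Neither passed the test in any of the 2 comparisons described here, day 8 with day 0 and day 12 with day 8.

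The other abundant tubulins were those of the centrosome. TUBG1, the gamma tubulin from which microtubules grow, was at 149 ± 29.5 normalised CPM on day 0, 216 ± 16.3 on day 8 and 54.0 ± 6.53 on day 12. On the TMM scale it was higher on day 8 (log2 fold change 0.54, adjusted p = 0.047) and lower on day 12 than on day 8 (adjusted p = 1.9e-06). In TPM it was at 227 ± 37 on day 0, 217 ± 13.4 on day 8 and 20.4 ± 6.41 on day 12, without a rise to day 8. On log2(TPM + 1) with limma, 0 of the 8 other tubulins tested were higher and 3 lower on day 8 than on day 0, beside 7.29% and 39.7% of all genes. TUBE1, the epsilon tubulin of centrioles, rose from 16.9 ± 0.70 to 35.5 ± 0.39 on day 8 (1.07, adjusted p = 0.00084) and fell to 17.8 ± 2.48 (-0.99, adjusted p = 0.00057). TUBG2 and TUBD1 were lower on day 12 as well, by -1.16 and -1.08. TUBB4A, named after its values were seen, was higher (adjusted p = 0.032) at 0.32 and 0.43 normalised CPM, from 12 counts or fewer in every library.

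Around the isotypes, the genes that fold, modify, nucleate and stabilize tubulin were counted in the same fits. Among 22 genes for folding and autoregulation, which include the CCT chaperonin, prefoldin and the tubulin cofactors, 5 were higher and 9 lower on day 8 than on day 0, beside 17.7% and 19.4% of all genes, with a median log2 fold change of -0.31 against 0 for all genes. SCAPER, the partner of TTC5 that brings in the deadenylase, had the largest change (3.16 and 2.15 to 0.45 and 0.31 normalised CPM, log2 fold change -2.80, adjusted p = 0.022), followed by TBCB, a cofactor that binds alpha tubulin, which was 1.07 higher (adjusted p = 0.0029). CCT6A and the other called chaperonin subunits were among the lower ones. On log2(TPM + 1), 0 genes of the list were higher and 14 lower on day 8, beside 7.29% and 39.7% of all genes.

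From day 8 to day 12, 4 of the 22 were higher and 13 lower, beside 23.8% and 33.4% of all genes, with a median of -0.68 against -0.20 for all genes. The 4 higher ones, named after their values were seen, were TBCEL, TBCC, PFDN2 and PFDN5. TBCEL, a cofactor E-like protein that promotes the loss of tubulin, went from 34.7 and 23.5 normalised CPM to 378 and 292 (log2 fold change 3.53 ± 0.22, adjusted p = 1.8e-08). TTC5 itself had 14.3 and 18.0 and then 9.81 and 6.99 (-0.95, adjusted p = 0.0013), and SCAPER was at 0 normalised CPM in both libraries of day 12. On log2(TPM + 1), 1 gene of the list was higher and 19 lower, beside 8.38% and 53.6% of all genes.

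Of 20 tubulin-modifying enzymes 19 could be tested, and 4 were higher and 3 lower on day 8 than on day 0, shares near the 17.7% and 19.4% of all genes. VASH1, a carboxypeptidase that removes the terminal tyrosine, had the largest change, from 0.12 and 3.79 normalised CPM to 0 and 0.02 (adjusted p = 0.013), with its 2 day 0 libraries far apart. ATAT1, the alpha tubulin acetyltransferase, was lower (8.88 and 6.14 to 2.97 and 4.32, log2 fold change -1.04, adjusted p = 0.0047). HDAC6 and SIRT2, which remove that acetyl group, were higher, by 1.00 and 0.66 (adjusted p = 0.00028 and 0.00044). TTL, which adds the tyrosine back, did not pass in either comparison (adjusted p = 0.54 and 0.92). On log2(TPM + 1), 2 of the 19 were higher and 7 lower on day 8 than on day 0, beside 7.29% and 39.7% of all genes.

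On day 12, 6 of the 19 were higher and 6 lower than on day 8, beside 23.8% and 33.4% of all genes. The 2 with the largest called change were TTLL3, a glycylase, from 3.89 and 1.66 normalised CPM to 28.7 and 34.0 (log2 fold change 3.50 ± 0.47, adjusted p = 2.2e-05), and TTLL5, a glutamylase, from 21.6 and 30.7 to 5.32 and 3.51 (-2.56 ± 0.24, adjusted p = 8.8e-07). Both were named after their values were seen. The median of the list was -0.50, and on log2(TPM + 1) 1 was higher and 13 lower, beside 8.38% and 53.6%.

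Of 11 genes for microtubule nucleation, TUBG1 and TUBG2 included, 3 were higher and 0 lower on day 8 than on day 0, beside 17.7% and 19.4% of all genes. On day 12 against day 8, 1 was higher and 9 lower, beside 23.8% and 33.4%. The 3 higher on day 8 were TUBGCP3, MZT1 and TUBG1. On log2(TPM + 1), 0 of the 11 were higher and 2 lower on day 8 than on day 0, beside 7.29% and 39.7% of all genes. At an unadjusted p under 0.05 with edgeR, 1 gene of the list was lower on day 8 (TUBGCP5). At least the 19.4% of all genes that edgeR called lower met that threshold too. DESeq2 called 1 gene of the list lower, beside 3809 of 16784 genes. On day 12 the median log2 fold change was -2.03 against -0.20 for all genes. TUBGCP3, a gamma tubulin ring subunit, went from 38.8 and 45.4 normalised CPM on day 0 to 82.3 and 88.0 on day 8 and 21.0 and 15.3 on day 12, a rise and then a fall larger than the spread between libraries. The exception on day 12 was TUBGCP6, at 61.4 and 56.9 on day 8 and 138 and 139 on day 12 (1.23 ± 0.25, adjusted p = 0.00076). On log2(TPM + 1) 0 were higher and 10 lower on day 12 than on day 8, beside 8.38% and 53.6%.

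Of 18 genes that stabilize, destabilize or sever microtubules, 6 were higher and 4 lower on day 8 than on day 0, beside 17.7% and 19.4% of all genes. The largest called changes were those of KATNAL1, a katanin-like severing enzyme (16.1 and 15.6 to 35.8 and 35.5 normalised CPM, log2 fold change 1.17, adjusted p = 0.0094), and KIF2A, a depolymerizing kinesin (114 and 134 to 44.5 and 68.0, -1.14, adjusted p = 0.0019). On log2(TPM + 1), 0 of the 18 were higher and 7 lower on day 8 than on day 0, beside 7.29% and 39.7% of all genes. On day 12, 4 were higher and 9 lower than on day 8, beside 23.8% and 33.4% of all genes, with a median of -0.82. The higher ones included CLIP1, MAPRE3 and MAP1S, named after their values were seen, and CLIP1, which rides on growing microtubule ends, had the largest rise, from 21.9 and 22.4 to 79.0 and 104 (2.04 ± 0.14, adjusted p = 5.7e-08). STMN1, which sequesters free dimers, went from 264 and 273 to 9.07 and 8.66 (-4.92 ± 0.28, adjusted p = 8.7e-09), a larger fitted fall than that of TUBA1B or TUBB. On log2(TPM + 1), 1 of the 18 was higher and 14 lower, beside 8.38% and 53.6%.

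**Figure D5:**
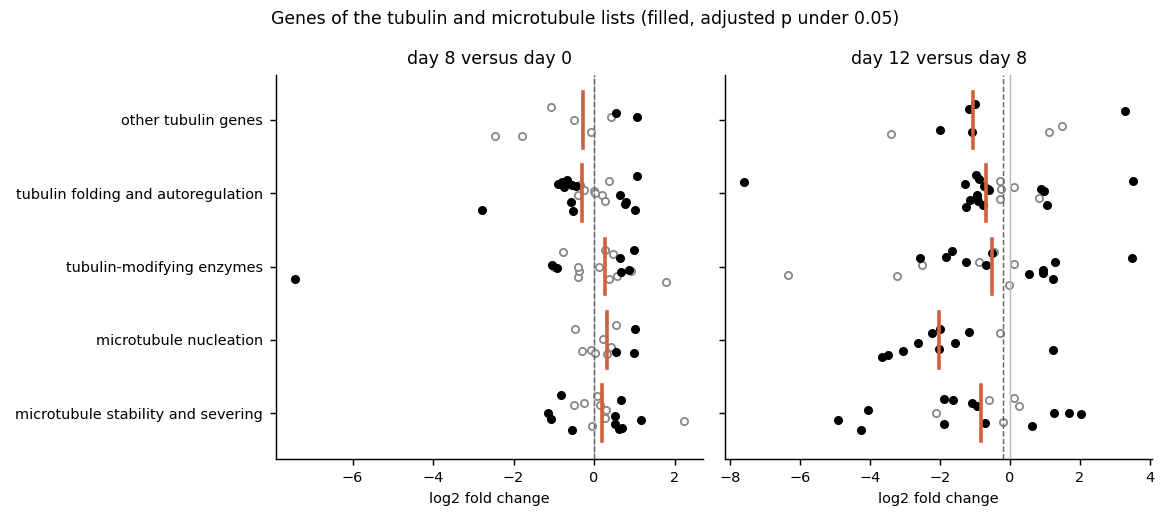
Each circle is 1 gene of 5 tubulin and microtubule lists, by fitted log2 fold change on the TMM scale, filled where the adjusted p was under 0.05; the orange bar is the list's median and the dashed line the median of all genes, and the vertical scatter within a list has no meaning. Nucleation genes lie mostly above 0 between days 0 and 8 and below it between days 8 and 12, with TUBGCP6 (1.23) as the gene on the other side.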

How the data were processed

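HUDEP-2 RNA was made into stranded poly(A) libraries. Per the labels and the methods, the authors used Trimmomatic 0.38 for trimming, HISAT2 2.1.0 for alignment (hg38) and StringTie 2.1.3b for known RefSeq transcripts. They deposited 4 tables of read counts, TPM and FPKM per transcript. The deposited counts (whole numbers, not normalized) and the deposited TPM values (scaled for transcript length and library size by the authors) of 40 columns were used, summed by gene symbol. Another 23 columns (FPKM, and the day 0 counts and TPM of the day 12 table) were not. Column names give the day but no replicate number. The 2 libraries of each day were distinct, with 65.3% to 78.0% of genes differing beyond sampling noise.

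Counts were tested with edgeR 4.0.16 in R 4.3.3 (filterByExpr, TMM, quasi-likelihood, 1 coefficient per day, adjusted p under 0.05). The 4 comparisons share libraries. The test was checked on simulated counts. Alternatives were DESeq2 1.42.0, limma 3.58.1 on log2(TPM + 1) and log2(TPM + 0.1), upper-quartile factors, TMM without globin or without ribosomal RNA genes, other filters, the set (first or second) as a block, the compared days alone, and each library left out. Sequences were read from hg38 with GENCODE 44. A gene that enters the counts of its list and 1 sequence are not reported here. The members, the gene lists and the tests were chosen with earlier results of these data known. Named genes were all members, the other tubulins with at least 10 counts on average, from each list at most 2 genes with the largest called change between days 0 and 8, and the 5 genes most correlated with TUBB1 and with TUBB. CCT6A, TTC5, HDAC6, SIRT2, TTL, STMN1, TUBGCP5, TUBGCP6 and TUBB4A fall outside this rule and were chosen after their values were seen, as were those the text says so of. SE was derived from the fold change and the F statistic.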

Additional observations from a re-analysis of the deposited data

How the results depend on the processing

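No paired analysis was possible because the columns carry no replicate numbers. The block given below is the set, first or second, a library belongs to, which need not pair cultures. The first set comes from several deposited tables, and differences between those were not adjusted for. Over 10 alternatives and 4 comparisons, 335 fold changes of members kept their direction and side of the threshold, 17 changed sign, 14 lost and 34 gained a call. The 9 calls of day 12 against day 8 kept their direction and side in all 4 fits that left out 1 library, with 4 members higher and 5 lower in each. The causes of the changes below were not tested.

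On log2(TPM + 1) 0 members were higher on day 12 than on day 8, 1 was higher and 2 were lower on day 8 than on day 0, 1 was higher on day 4 than on day 0 and 2 were lower on day 8 than on day 4. On log2(TPM + 0.1) these counts were 0, 1, 2 and 2, with none higher on day 4. Of all 16784 genes, log2(TPM + 1) called 1407 higher on day 12 than on day 8. It called 1223 higher and 6660 lower on day 8 than on day 0, 288 higher on day 4 than on day 0 and 4247 lower on day 8 than on day 4. In the same order log2(TPM + 0.1) called 1361, 1242, 6555, 279 and 4222. Log2 fold changes that changed sign on log2(TPM + 1) and log2(TPM + 0.1) were, for day 12 against day 8, TUBA4A (-0.204 and -0.208), TUBB1 (-0.016 and -0.027) and TUBB4B (-0.749 and -0.751). For day 8 against day 0 they were TUBA1B (-0.385 in both), TUBA4A (-0.0064 and -0.0066) and TUBB (-0.205 in both), for day 8 against day 4 TUBB (-0.374 in both) and for day 4 against day 0 TUBB4B (-0.030 in both). With upper-quartile factors TUBA1B turned from -0.018 to 0.0073 between days 4 and 8. Of the genes called between days 8 and 12, 41.6% were higher on the TMM scale, 13.5% on log2(TPM + 1) and 12.3% on log2(TPM + 0.1), and between days 0 and 8 47.7%, 15.5% and 15.9%.

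For day 4 against day 0, members higher were 4 with the set as a block, 4 with DESeq2 and 2 with no filter. Beside them 1151 and 912 of 16784 and 442 of 26893 genes were higher. Genes called in either direction were 887 by the main test, 2401 with the block, 1874 with DESeq2, 1402 on log2(TPM + 1) and 409 in a fit of the compared days alone. For day 8 against day 4, members higher were 2 with the block, 1 with DESeq2 and 1 with at least 10 counts in every library. Beside them 2414 and 1941 of 16784 and 1453 of 11081 genes were higher. With DESeq2 1 member was lower, beside 2395 of all genes. Genes called in either direction were 2884 by the main test, 5358 with the block, 4336 with DESeq2, 4837 on log2(TPM + 1), 4796 on log2(TPM + 0.1) and 72 in a fit of the compared days alone. For day 8 against day 0, members higher were 3 with no filter and 1 in the fit of the compared days, beside 2566 of 26893 and 1698 of 14829 genes. The fit of the compared days called 3725 genes in either direction, against 6224 by the main test.

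Leaving out 1 library at a time gave 197 to 468, 604 to 3575, 7982 to 8973 and 3568 to 5833 genes called, and 0 to 1, 0 to 1, 4 and 1 to 4 members higher, for day 4 against 0, day 8 against 4, day 12 against 8 and day 8 against 0. The lowest counts came without the first-set libraries of day 4 (197) and of day 8 (604 and 3568). Log2 fold changes that changed sign ranged from -0.111 to 0.039 for TUBA4A (day 4 against day 0), -0.136 to 0.084 for TUBA1B, -0.315 to 0.134 for TUBB2A, -0.446 to 0.038 for TUBB2B and -0.292 to 0.113 for TUBB6 (day 8 against day 4), and -0.342 to 0.174 for TUBA1C (day 8 against day 0).

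With counts in place of TPM, which weigh longer transcripts more, TUBA1B held 70.7% of alpha tubulin on day 0 and 26.7% on day 12, when TUBA1C led, and TUBB held 77.0% of beta tubulin on day 0. The other shares of leading isotypes at days 0 and 12 moved by less than 1 SD, and each set alone gave the same leading isotypes.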
